A study of Mus musculus with 13 samples.

Results

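The genes described here encode the proteins of the cytosolic ribosome, measured in whole mouse hearts after ischaemia and reperfusion or sham surgery. They were taken by name: a symbol had to match the pattern of Rpl or Rps followed by a number and at most 1 of the letters a, l or x, or be Rplp0, Rplp1, Rplp2 or Rpsa, and had to reach a mean of 5 CPM, a read count scaled to the library's total, over the 13 libraries. Of 53278 symbols counted, 83 matched the names and 73 passed the level. These 73 genes hold 42 of the large subunit (Rpl) and 31 of the small subunit (Rps). The rule did not use any difference between the groups.

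All hearts came from male wild-type C57Bl6 mice, operated at 12 weeks of age and sampled at 17 weeks. The Sham group (n = 3) had sham surgery and no injection. The IR group (n = 3) had ischaemia and reperfusion, a temporary stop of the blood supply to heart muscle, and no injection. The IR virus group (n = 3) had IR and a control virus, and the IR edit group (n = 4) had IR and a functional system that edits the gene of CaMKIIdelta, the main calcium/calmodulin-dependent protein kinase II of heart muscle cells. The labels do not give the kind or dose of virus, a batch, or whether each heart came from a mouse of its own, so the p-values measure the spread between these samples.

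Each ribosome joins a small subunit, which reads the messenger RNA, to a large subunit, which forms the peptide bonds. Ribosomal proteins are made in matched amounts, and in vertebrates their messages carry a terminal oligopyrimidine (TOP) tract, a run of pyrimidines that begins with the C at the very first base and through which the kinase complex mTORC1 controls their translation. Growth of heart muscle under load needs new ribosomes, and striated muscle also makes RPL3L, a muscle form of the large-subunit protein RPL3.

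The TOP tract can be read at the annotated start sites in RefSeq (GRCm38.p6), which held 68 start windows for 56 of the 73 genes. A tract was counted where the start base was C and the next 4 bases on the gene's own strand were all C or T. It was present for 13 of the 56 genes (23.2%) and for 813 of 27025 genes with a start window (3.01%). A window without it says only that the annotated start base is not followed by these letters. The windows below run 5′ to 3′ from 15 bases before the start site, with the tract in capitals, or only the start base where there was no tract. They show Rpl15 with the longest tract of the set, Rps6, a protein phosphorylated downstream of mTORC1, and Rps27 with its paralogue Rps27l. The other 4 belong to genes described in the comparisons below.
Rpl15, chr14:18270972-18271001, minus strand: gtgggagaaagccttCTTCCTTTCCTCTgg
Rpl35, chr2:39005117-39005146, minus strand: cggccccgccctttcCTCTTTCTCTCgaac
Rps6, chr4:86857353-86857382, minus strand: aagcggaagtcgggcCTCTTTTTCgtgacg
Rps18, chr17:33955651-33955680, minus strand: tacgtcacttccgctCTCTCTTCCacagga
Rps27, chr3:90213634-90213663, minus strand: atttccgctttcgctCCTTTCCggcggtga
Rps27l, chr9:66946071-66946100, plus strand: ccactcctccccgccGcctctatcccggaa
Rpl3l, chr17:24727811-24727840, plus strand: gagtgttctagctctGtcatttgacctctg
Rpl26, chr11:68901551-68901580, plus strand: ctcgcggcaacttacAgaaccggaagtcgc
The muscle paralogue Rpl3l and the p53-induced paralogue Rps27l showed no tract at these starts, whereas Rps27 did.

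The libraries held 20634820 to 27265276 counts, of which the 73 genes took 72960 to 104304. Mitochondrially encoded genes took 29.7% to 38.5% of all counts. On the first principal component of all tested genes (27.5% of the variance) the Sham hearts lay at -26.5 to -22.2 and the IR and IR virus hearts at -9.17 to 3.83. IR edit replicates 2 and 4 lay farthest on the other side at 34.0 and 45.1 and replicate 1 at 10.2, while replicate 3 lay at -2.80, among the IR and IR virus hearts. Cardiomyocyte markers summed to 42655 to 52962 CPM, none of the 8 at 0. The sum of the adipocyte markers was lower in all IR edit hearts (331 to 403 CPM) than in Sham (430 to 509 CPM). Of these 8 markers 4 were tested, 3 negative and 1 positive in IR edit against Sham. Only Fabp4 passed edgeR's test there (log2 fold change -0.39), where 8.01% of all genes did. The sum of the B and plasma cell markers was higher in IR (11.1 to 12.6 CPM) and IR virus (11.8 to 14.9 CPM) than in Sham (at most 10.7 CPM). Of these 8 markers 7 were tested, 6 positive and 1 negative in IR, and 5 positive and 2 negative in IR virus. In both, 0 passed edgeR's test, where 0.0127% of all genes did, and DESeq2 called only Ighm, in IR virus. The sums of 6 other marker lists overlapped with Sham in every injured group, and those of fibroblasts are given below. Camk2d, the targeted gene, passed edgeR's test in 0 of 6 comparisons, and a single-base edit need not alter its count.

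Together the ribosomal protein genes took a small share of the non-mitochondrial counts that lay close in all groups. The share was 0.583%, 0.611% and 0.604% in the Sham hearts and 0.642%, 0.596% and 0.560% in the IR hearts. It was 0.583%, 0.596% and 0.589% with the control virus and 0.599%, 0.565%, 0.564% and 0.567% with the editing system. The groups overlapped, and the IR hearts spread most, holding both the highest and the lowest of the 13 values. As mean ± SD the share was 0.599% ± 0.0145 for Sham and 0.599% ± 0.0407 for IR (n = 3 each), 0.589% ± 0.00644 for IR virus (n = 3) and 0.574% ± 0.0170 for IR edit (n = 4). Symbols named as ribosomal protein pseudogenes (287 in the files) held 2.03 to 2.14 further counts per 100 counts of the 73 genes, as group means. How reads with several matches were counted is not given in the sources used here, and the levels of genes with many near-identical copies are therefore uncertain.

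**Figure D1:**
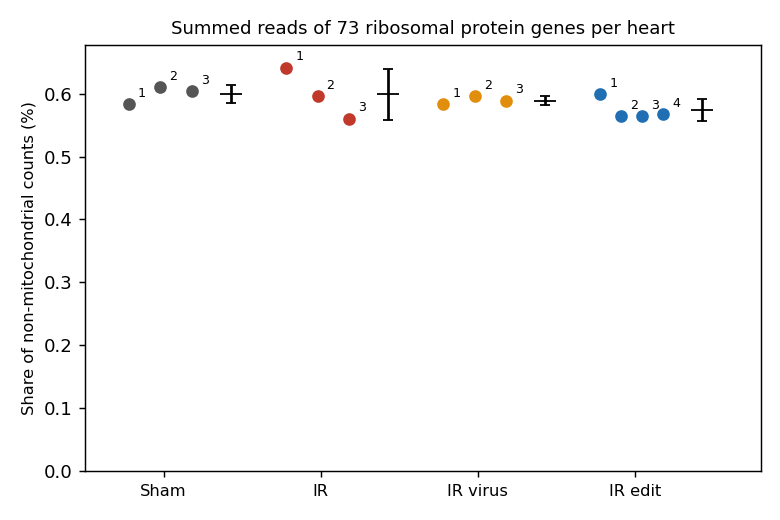
Summed counts of the 73 ribosomal protein genes as a percentage of counts outside the mitochondrial genome (y axis), for each heart (points, numbered by replicate) in 4 groups (x axis), with the group mean and SD as a bar to the right. The groups overlap, from 0.560% in IR replicate 3 to 0.642% in IR replicate 1.

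Levels of single members ranged widely when set against length (CPM per kilobase of annotated exons, which overstates the length of any 1 transcript). Rpl4, at the polypeptide exit tunnel, stood highest with 147 CPM per kilobase, followed by the small-subunit gene Rps15 with 145 and the stalk gene Rplp1 with 115. The lowest were Rps19 with 3.81, Rps27a with 3.39 and Rpl13a with 2.52. Just inside the level rule lay Rpl13a at 5.33 CPM and Rps27a at 6.67 CPM, and just outside it Rpl29 at 3.83 CPM and Rpl21 at 1.83 CPM. The other 8 matches left out were Rps23, Rpl17, Rpl32l, Rpl24, Rpl23a, Rpl39l, Rpl6l and Rpl10l, with means from 0 to 1.08 CPM. Of these, Rpl32l and Rpl6l are annotated as processed pseudogenes in GENCODE. Rpl39l and Rpl10l are the paralogues of Rpl39 and Rpl10, and Rpl10l had no count in any heart. Rpl17 and Rpl23a, at 0.978 and 0.0584 CPM, had 10 and 14 pseudogene symbols of their name, which held 0.531 and 0.983 CPM. Their levels are therefore uncertain. Rps23 and Rpl24 had 2 and 0 such symbols.

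Ischaemia and reperfusion alone left the levels of these genes close to those in Sham hearts. By edgeR's quasi-likelihood test with adjustment over all 15690 genes, 0 of 73 passed an adjusted p of 0.05, where 0.0127% of all genes did. At an unadjusted p under 0.05 there were 2 members, Rpl3 above and Rpl3l below Sham, against 8.33% of all genes. DESeq2 called 0 members, where 48 of 31961 genes passed. The median log2 fold change of the 73 was -0.03, with 25 positive and 48 negative, beside a median of 0.00 over all genes. The 95% interval lay within ±0.5 on the log2 scale (1.41-fold) for 66 members. The 7 with wider intervals were Rpl27a, Rps27a, Rpl19, Rps29, Rpl3, Rpl3l and Rpl36. In 3 of 73 (4.11%) the IR and Sham hearts did not overlap, less than the 14.4% of all genes: Rps12 and Rpl3 above Sham and Rpl3l below.

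Hearts that had also received the control virus gave a similar picture against the same Sham hearts. Again 0 of 73 passed edgeR's test, where 0.0127% of all genes did. DESeq2 called 0 members, where 191 of 31961 genes passed. At an unadjusted p under 0.05 there were 6 members, 1 higher and 5 lower, against 15.4% of all genes. The smallest p belonged to Rpl35, a protein at the mouth of the exit tunnel, and Rpl37a, a zinc-binding large-subunit protein. Rpl35 stood at 33.5, 36.9 and 40.3 CPM in Sham and at 27.9, 31.6 and 32.7 CPM with IR and the virus. Every virus heart was below every Sham heart, with a log2 fold change of -0.26 ± 0.097 (SE; adjusted p = 0.241, edgeR). Rpl37a stood at 25.2, 24.6 and 27.6 CPM in Sham against 23.2, 23.0 and 21.0 CPM, also without overlap (log2 fold change -0.20 ± 0.082, adjusted p = 0.265, edgeR). Non-overlap was seen for 10 members (13.7%), 3 above and 7 below Sham, against 21.3% of all genes. The median over the members was -0.04 and the interval lay within ±0.5 for 67 of them.

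**Figure D2:**
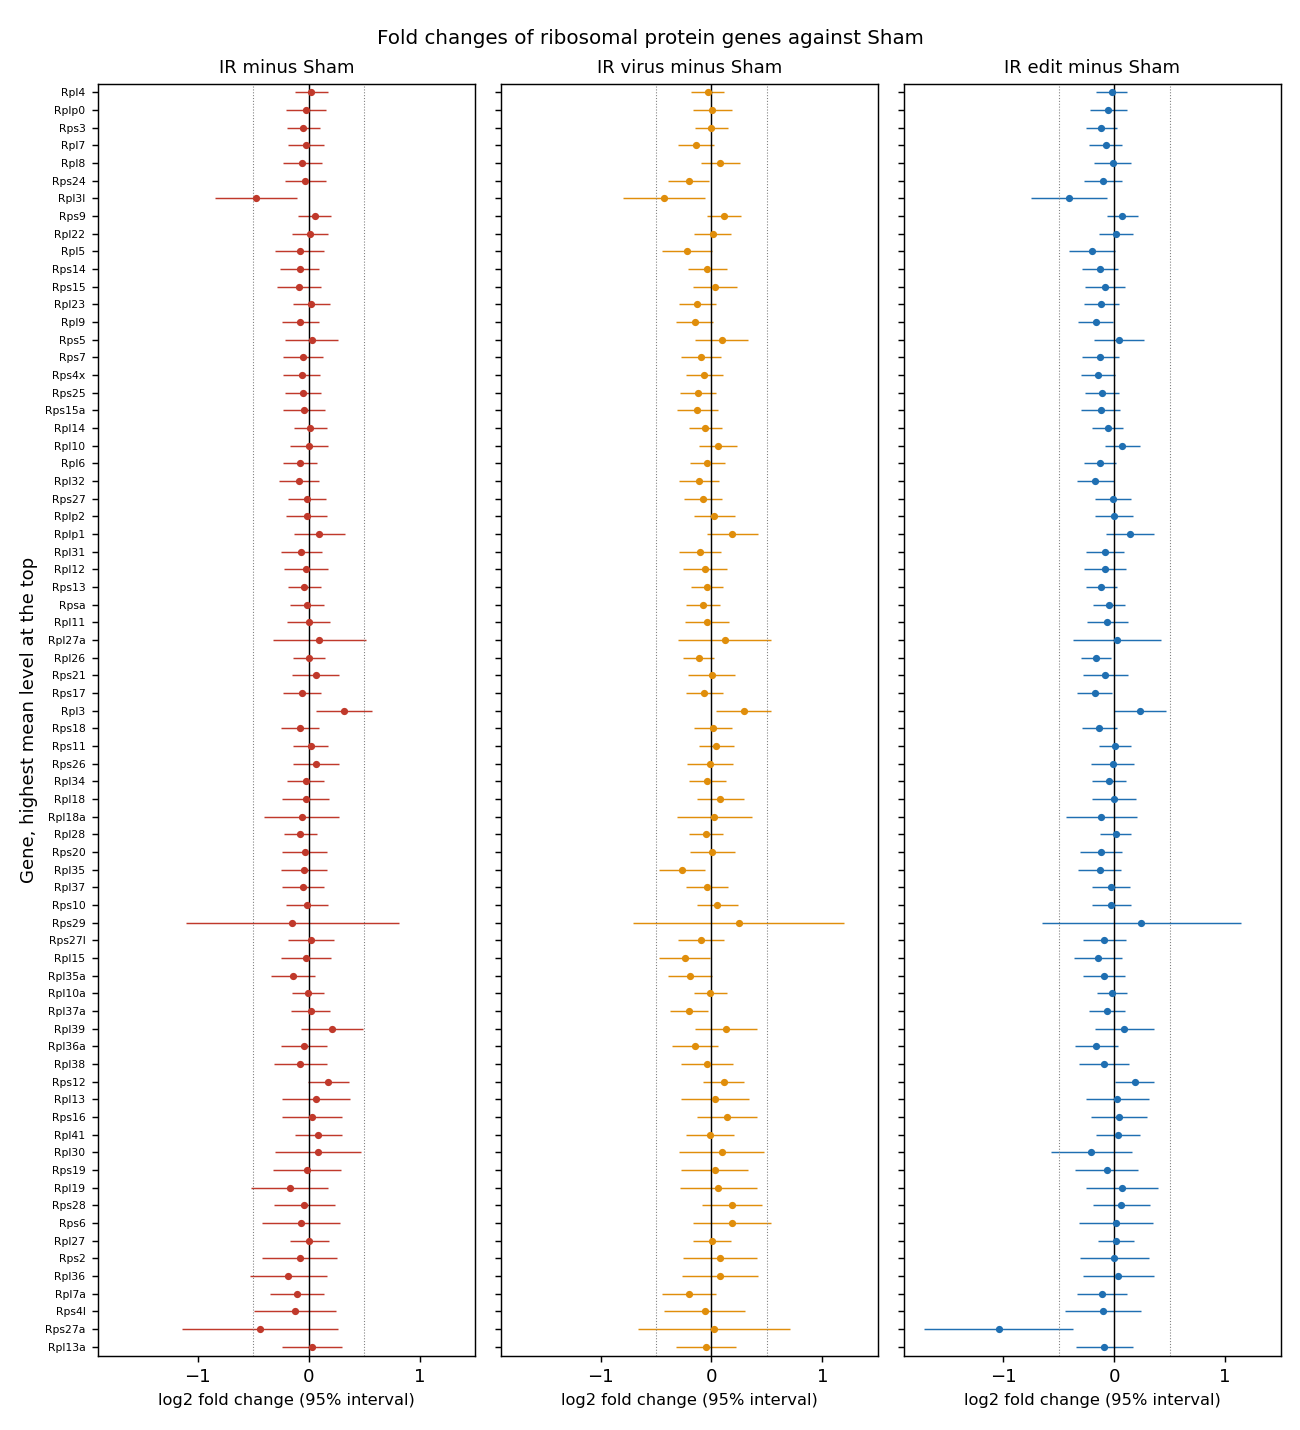
Log2 fold changes (x axis) with 95% intervals for the ribosomal protein genes shown (y axis, ordered by mean CPM) in IR, IR virus and IR edit hearts against the same Sham hearts; dotted lines mark ±0.5. Most intervals lie within the dotted lines and cross 0, and the points farthest out belong to Rpl3l, Rpl3 and Rps27a; Rps29 has the widest intervals.

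With the editing system, 0 of 73 members passed edgeR's test against Sham, where 8.01% of all genes did. DESeq2 likewise called 0 members, where 1607 of 31961 genes passed. At an unadjusted p under 0.05 there were 6 members, 1 higher and 5 lower, against 23.6% of all genes. The median log2 fold change of the members was -0.07, beside -0.00 over all genes, with 21 positive and 52 negative. The large-subunit genes had a median of -0.06 (12 of 42 positive) and the small-subunit genes -0.08 (9 of 31 positive). Intervals within ±0.5 covered 69 members, and Rps27a, Rps29, Rpl30 and Rpl3l were the exceptions. The hearts did not overlap with Sham for 10 members (13.7%), 2 above, Rps9 and Rps12, and 8 below, among them Rpl6, Rpl32, Rps3, Rpl26, Rps18, Rps14 and Rpl36a, against 16.4% of all genes.

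The count of members called in edited hearts against Sham depended on single hearts, most on IR edit replicate 3. Leaving out that heart gave 3 members past edgeR's test, where 15% of all genes passed: Rpl3 with a log2 fold change of 0.33 (adjusted p = 0.0126), Rpl3l with -0.58 (adjusted p = 0.0138) and the large-subunit gene Rpl9 with -0.23 (adjusted p = 0.0437). Without Sham replicate 2 and without IR edit replicate 2, 1 member passed, Rps27a, where 5.02% and 3.06% of all genes did. Rpl9 was named after these values were seen.

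Against IR virus and against IR, the edited hearts had no member past the threshold. The counts were 0 of 73 against IR virus, where 2.02% of all genes passed, and 0 of 73 against IR, where 1.42% did. DESeq2 called 0 members in both, where 495 and 427 of 31961 genes passed. At an unadjusted p under 0.05 there was 1 member in each comparison, Rps27a against IR virus and Rpl26 against IR, both lower with editing, against 15.2% and 14.5% of all genes. The median log2 fold change was -0.03 against IR virus and -0.05 against IR, and with 1 heart left out it ran from -0.035 to 0.00028 and from -0.10 to -0.00024, nearest 0 without IR virus replicate 2 and without IR replicate 1. Intervals within ±0.5 covered 70 and 68 members. Without overlap were 4 members (5.48%) against IR virus, where 13.9% of all genes separated, and 3 members (4.11%) against IR, where 12.8% did.

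The control virus against no injection, both after IR, gave 0 of 73 members and 0% of all genes by edgeR, and 0 by DESeq2 for the members and for all genes. At an unadjusted p under 0.05 there were 2 members, Rpl37a with a log2 fold change of -0.22 and Rpl35 with -0.22 (adjusted p = 0.962 for both, edgeR), among 603 genes (3.84%). The median of the members was -0.00. The 2 groups did not overlap for 7 members (9.59%), Rps27a above and Rpl37a, Rpl35, Rpl14, Rpl26, Rpl23 and Rps24 below, against 12% of all genes.

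Rpl26, a large-subunit protein near the exit tunnel, had its lowest group mean in edited hearts. Its CPM were 46.6, 46.8 and 48.6 in Sham, 47.9, 49.9 and 44.7 in IR, 43.7, 42.9 and 44.4 in IR virus, and 42.4, 41.8, 40.2 and 44.5 in IR edit. Edited hearts lay below all Sham and all IR hearts and overlapped with the virus hearts. The log2 fold change was -0.16 ± 0.063 against Sham (adjusted p = 0.127, edgeR), -0.17 ± 0.063 against IR (adjusted p = 0.223) and -0.05 ± 0.063 against IR virus (adjusted p = 0.769). Rps18, in the head of the small subunit, was also low with little spread in edited hearts. It stood at 39.0, 37.9, 39.6 and 37.7 CPM there, below the virus hearts at 42.0, 45.2 and 41.0 (log2 fold change -0.15 ± 0.074, adjusted p = 0.355, edgeR).

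Of the paralogue pairs among the 73 genes, Rpl3l and Rpl3 lay farthest from Sham in the injured hearts, in opposite directions. RPL3 reaches towards the peptidyl transferase centre, and RPL3L replaces it in ribosomes of adult heart and skeletal muscle. Rpl3l stood at 139, 149 and 129 CPM in Sham, 94.1, 87.7 and 119 in IR, 99.0, 118 and 93.3 in IR virus, and 115, 85.3, 138 and 80.0 in IR edit. Every IR and IR virus heart was below every Sham heart, and only IR edit replicate 3 among the injured hearts reached the Sham range. Log2 fold changes against Sham were -0.47 ± 0.17 in IR (adjusted p = 0.493), -0.43 ± 0.17 in IR virus (adjusted p = 0.269) and -0.41 ± 0.16 in IR edit (adjusted p = 0.131), by edgeR, so none passed. Between the 3 injured groups the log2 fold changes were 0.01 to 0.06.

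Rpl3 stood at 35.6, 37.5 and 34.8 CPM in Sham, 48.4, 46.2 and 39.8 in IR, 44.4, 42.1 and 45.3 in IR virus, and 42.8, 45.7, 32.4 and 47.7 in IR edit. All injured hearts but IR edit replicate 3 were above all Sham hearts. Log2 fold changes against Sham were 0.32 ± 0.12 (adjusted p = 0.495), 0.29 ± 0.12 (adjusted p = 0.267) and 0.23 ± 0.11 (adjusted p = 0.219), none past the threshold of edgeR's test. Rpl3-ps1, a pseudogene symbol whose reads may be those of Rpl3, had log2 fold changes of 0.50, 0.41 and 0.33 in the same comparisons, also short of the threshold.

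The CPM of Rpl3l divided by that of Rpl3 joins both in 1 value per heart. The 2 pseudogene symbols of Rpl3 held a further 10.6 CPM as a mean over the hearts, and Rpl3l had 0 such symbols. The level of Rpl3, and with it the ratio, is therefore uncertain. This ratio was chosen after the values were seen and is given without a test. It was 3.91, 3.98 and 3.71 in Sham, 1.95, 1.90 and 2.99 in IR, 2.23, 2.81 and 2.06 in IR virus, and 2.69, 1.86, 4.25 and 1.68 in IR edit. It lay between 1.68 and 2.99 in 9 of the 10 injured hearts and above the Sham range in the tenth, IR edit replicate 3. The summed CPM of 8 fibroblast markers was higher in every injured heart than in every Sham heart. It was 1036 to 1090 in Sham, 1260 to 1858 in IR, 1364 to 1907 in IR virus and 1152 to 2129 in IR edit. None of the 8 was at 0 in any group. All 8 had positive log2 fold changes against Sham in each injured group, with medians of 0.67 in IR, 0.77 in IR virus and 0.56 in IR edit. With the editing system 4 of them passed edgeR's test, where 8.01% of all genes did. In IR and in IR virus 0 passed, where 0.0127% of all genes did. There 7 had an unadjusted p under 0.05 in each, against 8.33% and 15.4% of all genes, and DESeq2 called 0 and 3. Edited hearts gave 2 positive and 6 negative against IR virus, and 5 positive and 3 negative against IR. In each injured group the heart with the highest ratio had the lowest fibroblast sum, namely IR replicate 3 (1260 CPM), IR virus replicate 2 (1364 CPM) and IR edit replicate 3 (1152 CPM). The cardiomyocyte sums were 46502 to 52962 CPM in Sham, 44516 to 46785 in IR, 46887 to 50177 in IR virus and 42655 to 50700 in IR edit. The part of cell composition in these ratios was not tested, and in RNA from whole hearts fewer cells of a type and less RNA per cell cannot be told apart.

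**Figure D3:**
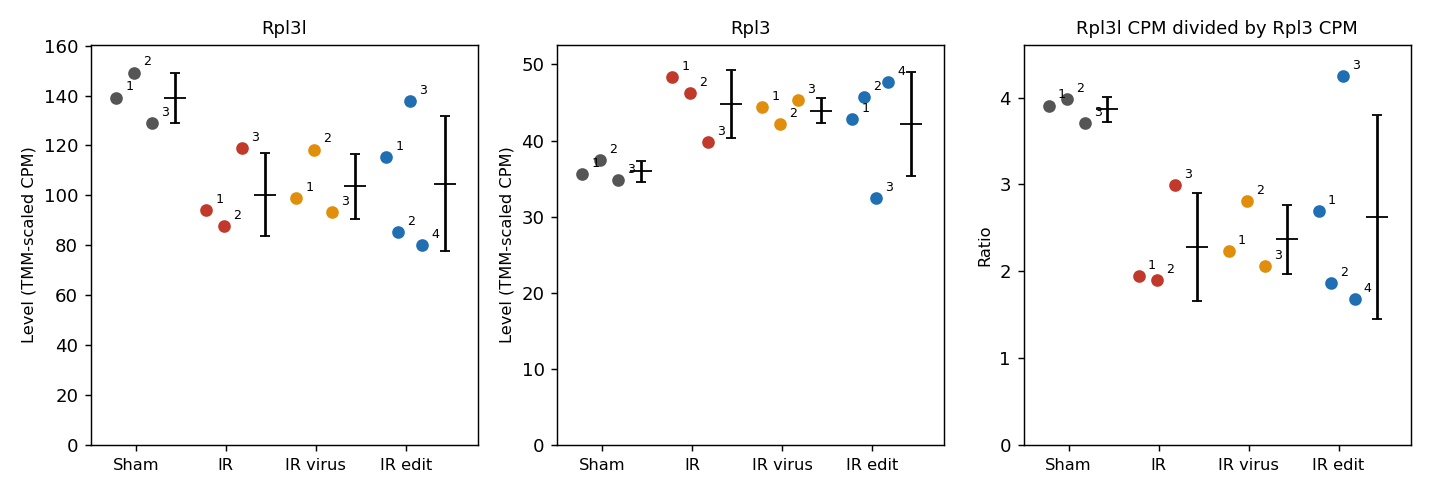
TMM-scaled CPM of Rpl3l (left) and Rpl3 (middle) and their ratio (right) on the y axes, for each heart (points, numbered by replicate) in 4 groups (x axis), with group mean and SD as a bar to the right. Sham hearts sit high for Rpl3l and low for Rpl3, and IR edit replicate 3, with a ratio of 4.25, is the 1 injured heart that sits with them.

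The other paralogues described here lay closer to Sham. Rps27 stood at 58.7 ± 0.827 CPM in Sham, 58.0 ± 6.32 in IR and 55.7 ± 4.02 in IR virus (mean ± SD, n = 3 each), and at 58.1 ± 1.19 CPM with editing (n = 4). Rps27l, which p53 induces, stood at 28.9 ± 2.83, 29.4 ± 2.61, 27.1 ± 2.01 and 27.2 ± 1.91 CPM in the same order. Group differences were within the spread between hearts for both, with 95% intervals inside ±0.5 in all 6 comparisons. Rps4x, the X-linked gene, stood at 74.4 ± 3.30 CPM in Sham and 67.2 ± 2.90 in IR edit (log2 fold change -0.15 ± 0.072, adjusted p = 0.233, edgeR). Rps4l, annotated as a transcribed pseudogene in GENCODE, stood at 5.77 to 9.67 CPM over the 13 hearts. Rpl10, which joins the large subunit last and completes it, had group means from 57.9 to 60.8 CPM. Rpl39, in the exit tunnel, had group means from 22.2 to 25.8 CPM, and its largest log2 fold change was 0.21 ± 0.13 in IR against Sham (adjusted p = 0.700, edgeR).

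Genes of the ribosomal stalk, which recruits the elongation factors, did not separate the groups. Rplp0 stood at 159 ± 9.44 CPM in Sham, 156 ± 7.32 in IR, 160 ± 15.3 in IR virus and 153 ± 8.78 in IR edit. Rplp2 stood at 57.4 ± 5.86, 56.8 ± 5.51, 58.5 ± 1.72 and 57.2 ± 2.09 CPM. Rplp1 ran from 49.7 to 67.4 CPM, both extremes in IR virus hearts, and its largest log2 fold change was 0.19 ± 0.11 in IR virus against Sham (adjusted p = 0.416, edgeR). All 3 had overlapping hearts in all 6 comparisons.

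Members with known roles outside translation also passed edgeR's test in no comparison. Rpl5 and Rpl11, which bind the 5S ribosomal RNA and can hold the p53 ligase MDM2, stood at log2 fold changes of -0.22 ± 0.10 in IR virus against Sham for Rpl5 (adjusted p = 0.330, edgeR), its largest, and from -0.06 to 0.00 over all 6 comparisons for Rpl11. Rpl5 was lowest in IR virus replicate 1 (76.0 CPM) and IR edit replicate 4 (82.1 CPM), against 105 ± 8.85 CPM in Sham (SD, n = 3). Rpsa, also known as a laminin receptor, stood at 44.2 to 51.5 CPM in every heart. Rps19, mutated in Diamond-Blackfan anaemia, stood at 14.9 to 22.1 CPM, with both extremes in Sham hearts. Rps6 stood at 15.6 ± 0.303 CPM in Sham and spread more widely in IR, at 14.9 ± 3.78 CPM, and in IR virus, at 17.8 ± 2.59 CPM (SD, n = 3 each), and in IR edit, at 15.8 ± 2.37 CPM (n = 4). Its log2 fold change was 0.19 ± 0.16 in IR virus against Sham (adjusted p = 0.603, edgeR) and 0.25 ± 0.17 against IR (adjusted p = 0.962), both with intervals beyond ±0.5, and 4 Rps6 pseudogene symbols held a further 7.38 CPM, so its level is uncertain.

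Rps27a and Rps29 varied most between hearts. Rps27a encodes ubiquitin fused to a small-subunit protein, and other ubiquitin genes hold a near-identical ubiquitin sequence. It was thinly covered, with 32 to 267 counts per heart. It stood at 7.74, 5.34 and 12.6 CPM in Sham, 6.49, 4.86 and 7.54 in IR, 9.27, 8.40 and 8.29 in IR virus, and 3.93, 6.23, 1.66 and 4.61 in IR edit. All edited hearts lay below all virus hearts, and they overlapped with the Sham and IR hearts. The log2 fold change of edited hearts was -1.06 ± 0.31 against IR virus (adjusted p = 0.105, edgeR), -1.04 ± 0.31 against Sham (adjusted p = 0.0545) and -0.60 ± 0.32 against IR (adjusted p = 0.418). None passed. Against Sham it passed without Sham replicate 2 (-1.29, adjusted p = 0.0316) and without IR edit replicate 2 (-1.30, adjusted p = 0.0447), and over all single hearts left out it ran from -1.30 to -0.66. Against IR virus it ran from -1.32 to -0.82 and against IR from -0.86 to -0.36. With no filter on low counts Rps27a passed edgeR's test against Sham, IR virus and IR (adjusted p = 9.19e-11, 1.58e-10 and 0.00389). Its log2 fold changes were then nearly the same (-1.05, -1.05 and -0.60), and 2205, 1018 and 1021 of 31973 genes passed. DESeq2's test, the other scalings, the 1 CPM filter, the robust dispersion, the fits of 2 groups and the replicate block did not call it.

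Rps29, a small zinc-binding protein of the small subunit, had an SD of 0.71 on the log2 scale over the 13 hearts without separating any groups. It stood at 31.0, 30.2 and 17.7 CPM in Sham, 41.7, 7.46 and 22.2 in IR, 24.0, 36.9 and 33.0 in IR virus, and 45.1, 33.6, 31.6 and 14.7 in IR edit. Its highest and lowest hearts differed within IR and within IR edit by more than any group means did. At the other end, Rpl10a stood at 23.7 to 26.2 CPM in all 13 hearts (SD of log2 CPM 0.0362), and Rpl27 at 14.1 to 16.3 CPM (SD 0.0584).

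**Figure D4:**
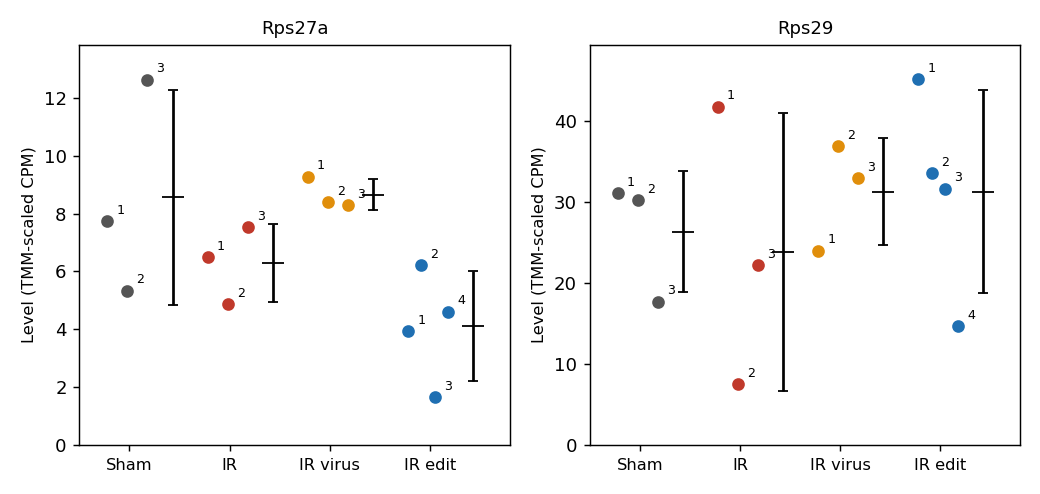
TMM-scaled CPM (y axes) of Rps27a (left) and Rps29 (right) for each heart (points, numbered by replicate) in 4 groups (x axis), with group mean and SD as a bar to the right. The Rps27a values of edited hearts (1.66 to 6.23 CPM) lie below those of the virus hearts, while Rps29 spreads from 7.46 to 45.1 CPM with no order by group.

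Hearts of 1 group differed from each other in many ribosomal protein genes at once. Among the IR hearts, replicate 1 was the highest for 58 of 73 members (32.1% of all genes) and replicate 3 the lowest for 57 (39.0% of all genes). The median deviation of the members from their own mean over all hearts was 0.11, 0.00 and -0.08 log2 units in IR replicates 1 to 3. Sham replicate 2 was above the members' own means for 62 of 73 and IR replicate 1 for 69. These differences between hearts were at least as large as the median differences between groups. The spread within groups was otherwise small: the median SD of log2 CPM was 0.107 for the members, 0.130 for 9192 genes in the same level range and 0.180 for all 15690.

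**Figure D5:**
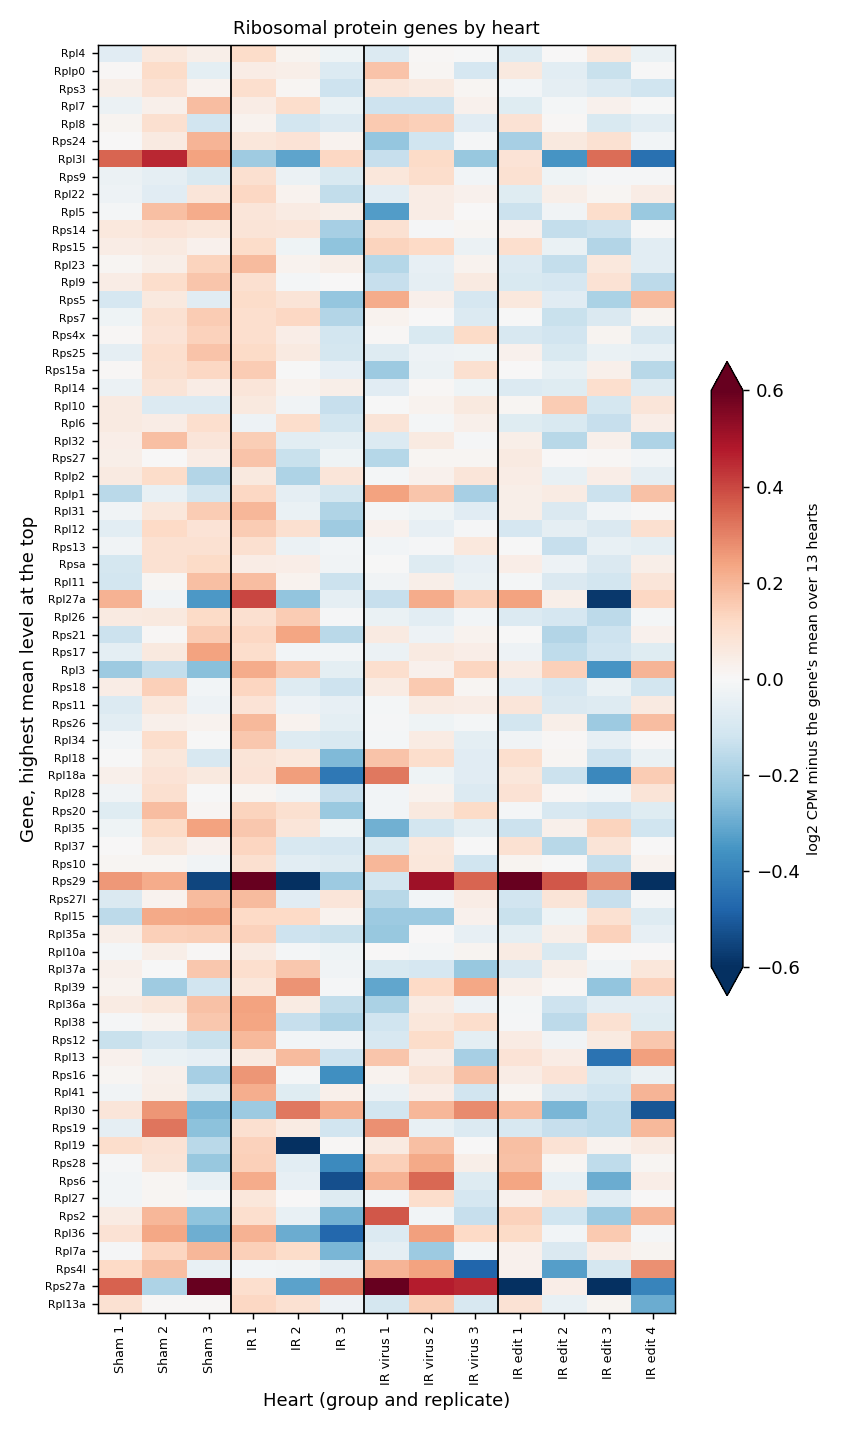
Log2 CPM of the ribosomal protein genes shown (rows, ordered by mean CPM) minus each gene's own mean over the 13 hearts, in each heart (columns, groups divided by black lines); colours end at ±0.6. IR replicate 1 is above the mean in nearly all rows, and the strongest colours lie in the rows of Rpl3l, Rps29 and Rps27a.

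The machinery around the ribosome was read from lists of genes that the name pattern does not take. Of 7 further ribosomal proteins and of 17 other TOP messages tested, 0 passed edgeR's or DESeq2's test in any of the 6 comparisons. Of all genes, 0% to 8.01% passed edgeR's test, depending on the comparison. At an unadjusted p under 0.05 there were 0 to 2 and 0 to 3, against 3.84% to 23.6% of all genes. In IR virus against IR these were 2 of 7 and 3 of 17, against 3.84% of all genes. The 7 proteins also held 2 in IR edit against Sham and 2 against IR (23.6% and 14.5% of all genes). Nearest to the threshold was Rps3a1, of the small subunit, in edited hearts against Sham (log2 fold change -0.22 ± 0.075, adjusted p = 0.0773, edgeR). It passed without IR edit replicate 3 (-0.25, adjusted p = 0.0458). Of the paralogues in that list, Rpl36al stood at log2 fold changes of -0.38 ± 0.39 in IR virus and -0.36 ± 0.37 in IR edit against Sham (adjusted p = 0.661 and 0.608), and Rpl22l1 at -0.28 ± 0.12 in IR edit (adjusted p = 0.161, edgeR). The 6 tested chaperones of ribosomal proteins also had 0 in every comparison by both tools, and 0 at an unadjusted p under 0.05. The shares of all genes are those just given, and a list of 6 is too short to differ clearly from them. By edgeR, the calls in the other 4 lists all came in comparisons of edited hearts, where 1257, 317 and 223 of all genes passed against 2, 2 and 0 in the comparisons without them. DESeq2 also called Rrp12 and Mrpl39 in IR virus against Sham, where edgeR gave Rrp12 a log2 fold change of 0.65 ± 0.18 (adjusted p = 0.156). Against Sham, 2 ribosome biogenesis genes of 47 rose, Rrp12 (0.77, adjusted p = 0.0143) and Tsr1 (0.33, adjusted p = 0.0353), which act in maturation of the small subunit. Another 2 fell, Rrs1 (-0.50, adjusted p = 0.0145), needed for the large subunit, and Polr1a (-0.30, adjusted p = 0.0224), the largest subunit of RNA polymerase I. These 4 of 47 are close to the 8.01% of all genes called. The call ended for Rrp12 without Sham replicate 1 (0.70, adjusted p = 0.0558) or 3 (0.72, adjusted p = 0.0521), and for Rrs1 without Sham replicate 1 (-0.38, adjusted p = 0.0699). It ended for Polr1a without Sham replicate 1 or 2 or IR edit replicate 2 or 4, up to an adjusted p of 0.0822. It ended for Tsr1 without Sham replicate 1 or 3, IR replicate 2 or IR edit replicate 2 or 4, up to 0.146.

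Proteins of the mitochondrial ribosome, which serves the mitochondrial genome alone, were read in the same hearts. Of 76 tested, 62 were negative in edited hearts against Sham, with a median log2 fold change of -0.11 beside -0.07 for the cytosolic genes, and 3 fell, a smaller share than the 8.01% of all genes called. At an unadjusted p under 0.05 there were 21 of 76, against 23.6% of all genes. In IR virus and in IR against Sham, 55 and 50 of the 76 were negative, with medians of -0.08 and -0.03. Edited against virus hearts gave a median of -0.01. Mrpl39 stood at 64.9, 66.1 and 70.1 CPM in Sham and at 47.9, 39.7, 50.5 and 35.7 CPM with editing, without overlap (-0.62 ± 0.098, adjusted p = 0.00247, edgeR), and kept its call with any 1 heart left out (largest adjusted p 0.0139). Mrpl39 was also negative against Sham in IR virus (-0.39 ± 0.11, adjusted p = 0.155, edgeR) and in IR (-0.22 ± 0.11, adjusted p = 0.614). Edited against virus hearts gave -0.23 ± 0.099 (adjusted p = 0.286, edgeR). Mrpl42 (-0.34, adjusted p = 0.0245) lost its call without Sham replicate 3 or IR edit replicate 2 or 4 (up to 0.0901). Mrpl22 (-0.33, adjusted p = 0.0481) lost it without any 1 heart other than Sham replicate 2 and IR replicates 1 and 2 (up to 0.155). In IR virus against Sham, Mrpl42 stood at -0.31 and Mrpl22 at -0.18, neither past the threshold of edgeR's test. Of 45 translation factors, Eif4g3, an initiation scaffold (0.35, adjusted p = 0.0153), and Eif3a, a subunit of the initiation factor eIF3 (0.31, adjusted p = 0.0264), rose, and Eif1ax, which takes part in start-site scanning, fell (-0.26, adjusted p = 0.0444), again a smaller share than the 8.01% of all genes. Eif4g3 lost its call without Sham replicate 1 or 3 (up to 0.0639), and Eif3a without Sham replicate 1 or 2 or IR edit replicate 2 or 4 (up to 0.0953). Eif1ax lost it without Sham replicate 2 or 3, IR replicate 1 or 2, IR virus replicate 2 or IR edit replicate 1, 2 or 4 (up to 0.163). In IR virus against Sham, Eif4g3, Eif3a and Eif1ax stood at 0.07, 0.03 and -0.23, none past the threshold of edgeR's test.

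Among 19 tested genes of mTORC1 and its regulators, Sesn1, an amino acid sensor, fell in edited hearts against Sham (-0.48, adjusted p = 0.0415), 1 of 19 where 8.01% of all genes were called. It lost the call without any 1 heart other than Sham replicate 2, IR replicate 3 and IR edit replicate 3, and without Sham replicate 1 the value was -0.25 (adjusted p = 0.193). Sesn1 was also negative against Sham in IR virus (-0.41, adjusted p = 0.227, edgeR) and in IR (-0.33, adjusted p = 0.574). Of the genes called against Sham in these 4 lists, only Mrpl39 passed when the Sham and IR edit hearts were fitted alone. Ddit4, a stress-induced inhibitor of mTORC1, stood at 41.4, 36.2, 42.9 and 43.2 CPM in edited hearts. It stood at 10.8, 12.8 and 10.1 CPM in IR virus and at 8.88 to 10.3 CPM in IR. In Sham it was 39.7 CPM in replicate 1 against 10.9 and 7.33 CPM in the others, so that 1 Sham heart sat with the edited hearts. Ddit4 was higher in edited hearts than in IR virus (log2 fold change 1.86 ± 0.39, adjusted p = 0.0241, edgeR) and, named here after its value was seen, than in IR (2.07 ± 0.40, adjusted p = 0.0151), 1 of 19 in each comparison where 2.02% and 1.42% of all genes were called. The call against IR virus was lost without any 1 of the virus hearts (adjusted p up to 0.116) and with a robust dispersion (0.102), while the log2 fold change stayed between 1.79 and 1.96. Against Sham the log2 fold change was 1.07 (adjusted p = 0.0897), and 2.16 without Sham replicate 1 (adjusted p = 1.06e-05).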

How the data were processed

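The authors deposited raw counts of reads for each gene symbol, with a file for every library. The 13 libraries were made from whole-heart RNA with an mRNA kit, per the labels' protocols. HISAT2 2.1.0, featureCounts 1.6.2, Trimmomatic 0.39 and FastQC 0.11.8 are named in the submitters' processing notes, beside the build mm10. Not given in the sources used here are the annotation, strandedness and handling of reads with several matches. Groups were taken from the sample titles.

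Counts were scaled with TMM and filtered with filterByExpr (15690 genes) and tested in R 4.3.3 with edgeR 4.0.16 (limma 3.58.1 loaded): 1 mean per group, all 13 libraries, quasi-likelihood test, Benjamini-Hochberg adjustment over all genes, threshold 0.05. The fit had 9 residual and 6.08 prior degrees of freedom. SE is the absolute log2 fold change over the square root of F, and 95% intervals use the t distribution with the summed degrees of freedom. CPM are TMM-scaled. DESeq2 1.42.0 was an alternative. The code was tested on simulated data. GENCODE M21 gave positions and exon lengths for all 83 matches, RefSeq the start windows. The comparisons against Sham share the Sham hearts.

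Members and lists were chosen with earlier results of these data known. Named in the text were the paralogue pairs, stalk genes, Rpsa, Rps6, Rpl5, Rpl11, Rps19 and Rps27a; the 2 members with the smallest p per comparison; the 3 highest and 3 lowest per length; the 2 most and 2 least variable; the 2 on each side of 5 CPM; and from each list the 2 smallest p in IR edit against Sham and against IR virus, of which those past the threshold and the nearest are given. Alternatives were other scalings, filters, dispersions, tests, sample sets, the title's number as a block, and each library left out. The values of 1 member that this rule names are not reported here, and its row is left out of the plots.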

Additional observations from a re-analysis of the deposited data

Results flagged for a closer look

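In the IR edit group, the only one with 4 hearts, 75 quantities were checked for a heart whose gap to its nearest neighbour took more than 0.829 of the group's range (Dixon's 95% critical value). Chance flags about 1 in 20 such sets, and 6 of 75 were picked out. Rps9 was 105 CPM in replicate 1 against 97.2 to 98.3 CPM in the others. Replicate 3 stood apart for Rps4x (71.5 CPM, others 65.1 to 66.1), Rpl14 (67.9 CPM, others 59.8 to 60.1) and Rps10 (25.9 CPM, others 28.6 to 29.0). Rps19 was 20.3 CPM in replicate 4 against 15.9 to 16.6 CPM. The summed share of the ribosomal protein genes was 0.599% in replicate 1 against 0.564% to 0.567%.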

How the results depend on the processing

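Of the 6 counts of ribosomal protein genes called, all stayed at 0 with DESeq2's size factors, upper quartile scaling, TMM without these genes and the mitochondrial ones, a robust dispersion, a minimum of 1 CPM in 3 hearts, DESeq2's test and a fit of only the 2 groups. With no filter, 1 was called in IR against Sham, 1 in IR virus against Sham, 2 in IR edit against Sham, 1 in IR edit against IR virus and 2 in IR edit against IR, among 598, 863, 2205, 1018 and 1021 genes: Rpl3l in the comparisons with Sham, Rps27a in those of IR edit, and Rps29 in IR edit against IR. Leaving out 1 heart gave 0 to 3 in IR edit against Sham and 0 in the others. It moved the median log2 fold change between -0.090 (without IR replicate 1) and 0.016 (without IR replicate 3) in IR against Sham and between -0.056 (without IR replicate 3) and 0.044 (without IR replicate 1) in IR virus against IR. With all counts as denominator the summed share was 0.382%, 0.391%, 0.393% and 0.386% (Sham, IR, IR virus, IR edit), without the 5 most abundant members 0.470%, 0.469%, 0.460% and 0.449%, and with pseudogenes 0.601% in IR virus. The direction turned only for values close to 0 or thinly covered: Rpl3l in IR edit against IR virus was -0.0033 under upper quartile scaling and -0.14 to 0.13 with 1 heart left out, and -0.10 to 0.20 against IR. Rpl3 ran from -0.11 to 0.049 and -0.16 to 0.022 in those comparisons. In IR virus against IR, Rpl3 ran from -0.11 to 0.032 and Rpl3l from -0.061 to 0.19. Rps27a ran from -0.23 to 0.40 in IR virus against Sham. The cause was not tested. Genes called over the whole table numbered 48, 191, 1607, 495, 427 and 0 with DESeq2 (IR, IR virus and IR edit against Sham, IR edit against IR virus and IR, IR virus against IR), and 115, 203, 246, 220, 168 and 0 in fits of 2 groups. Deviations of 18 pairs of hearts with the same number in the titles correlated at -0.13 to 0.22, 4 of them over 0.1. In groups this small such values cannot tell whether the numbers pair the hearts or mark a shared batch. With the replicate block 0 members were called in every comparison, and 5, 174, 590, 159, 122 and 0 genes of the whole table. Without the block the whole table held 2, 2, 1257, 317, 223 and 0 calls.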
